A study of Zea mays with 38 samples.

Results

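The genes described here code for proteins that write, erase or read marks on chromatin in maize: histone deacetylases, histone acetyltransferases, SET-domain histone methyltransferases, a DNA methyltransferase, methyl-CpG-binding domain proteins and a bromodomain protein. They were chosen by name, as every array feature whose gene symbol or synonym was made of 1 of 16 letter prefixes (hda, hdt, srt, hag, hac, haf, ham, mbd, dmt, sdg, chr, chb, chc, che, brd or gte) followed by a gene number. The rule found 35 features of 19 genes among 20076 features on the slides. The prefixes were mbd with 13 features, hda with 5, dmt, hac and sdg with 4 each, hdt with 3 and brd with 2. The other 9 prefixes, among them those of the chromatin remodelling ATPases and their complexes, gave no feature of their own. All 35 features were tested, and 10 of the genes were represented by several features.

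Leaves of maize (Zea mays) seedlings were treated with UV-B for 1, 2, 4, 8 or 12 h or kept as controls of the same time, which gave 10 groups of total RNA. On every 2-colour cDNA slide a UV sample was hybridised together with the control of its own time, with UV in Cy5 on slides a and b and in Cy3 on slides c and d. There were 4 slides at each time and 3 at 2 h (a, c and d), 19 slides and 38 samples in all, and slide b of 2 h was not analysed here. The inbred line B73 was named in the labels of 14 samples, those of 1 h and 2 h, and no line was named for the other 24. Plants were assigned at random and each treated group held approximately 20 plants, per the study's design text, but the labels leave unsaid whether replicate slides used RNA of different plants, and p-values then measure only a spread between slides that may be technical.

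Acetylation of histone tails is put on by acetyltransferases and taken off by deacetylases, and bromodomains bind acetylated lysines. DNA methyltransferases maintain cytosine methylation, and methyl-CpG-binding domain (MBD) proteins are named for a domain that in mammals binds methylated CpG, although not all plant members bind methylated DNA. In maize, lines in which a chromatin gene such as mbd101 had been knocked down are known for their hypersensitivity to UV-B.

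Values below are log2(UV/control) within a slide, after background correction and loess normalization, so that a negative value means less signal in the UV sample. A change is given as the mean of a limma fit over all 19 slides with its standard error (SE), and was called at a Benjamini-Hochberg adjusted p under 0.05 over all 20014 tested features. The brightest of 7 foreign or transgene spots, a measure of unspecific signal, had a mean log2 intensity of 16.76. Of the 35 features, 28 were brighter than it and 7 were not, while 72.5% of all tested features were brighter. The members' mean log2 intensities ran from 15.09 (sdg118) to 20.89 (mbd115 AI833416). Features named by symbol as leaf genes were brighter than the foreign spot in 18 of 21 cases, seed genes in 7 of 11, pollen genes in 17 of 20 and root genes in 1 of 2, so the lists, which rest on symbols alone, did not set leaf apart from other tissues. In whole leaves, fewer cells of a type and less RNA per cell cannot be told apart.

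Some slides stood apart from the rest. On slide d of 2 h and slides b, c and d of 4 h, log2 intensities correlated with one another at 0.899 to 0.961 and with the other 15 slides at 0.651 to 0.841, while the other 15 correlated among themselves at 0.734 to 0.956. On these 4 slides 1471 features (7.33%) were over 1 log2 unit dimmer and 1738 (8.66%) over 1 log2 unit brighter than on the other 15. Among the members 6 were dimmer and 5 brighter. The brighter ones were sdg110 BQ164497 (by 1.76), mbd115 BQ293900 (1.40), brd103 BQ293783 (1.10), SDG123 (1.015) and hdt102 AW146695 (1.013). Of these, sdg110 BQ164497, brd103 BQ293783 and hdt102 AW146695 are among the called members below. The dimmer features were most frequent in row 3 of the printed blocks, which held 514 of the 1471. There 48.7% of the features were dimmer, beside 18.9% in row 2 and 15.6% in row 4, and 5 of the 6 dimmer members lay in row 3. Separately, 60 of 912 blocks of spots, on 13 slides, correlated at under 0.7 with the median of the other slides, and for 49 of the 60 a shift by whole rows raised the correlation above 0.7. The feature mbd105 AI770580 lay in such a block on 13 of 19 slides, and mbd101, mbd105 AI714501, mbd115 AI833416, hac108 and sdg110 AI855058 on 1 slide, slide b of 1 h. Called changes that rest on these slides or blocks are given with and without them below, as are uncalled ones that move with them by much, and both alternatives were chosen after the data had been seen. Places among the members (highest, lowest) are those on all 19 slides.

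Averaged over the 5 times, UV changed 6 of the 35 members, 3 upward and 3 downward, against 14.4% of all features (8.72% upward and 5.68% downward). The members that fell were mbd111 BQ485616, sdg110 BQ164497 and brd103 BQ293783, and those that rose were hdt102 AW146695, mbd115 AI833416 and hac108. The changes were small: the largest fall was to 0.783 times the control and the largest called rise to 1.20 times. The median change of the members was 0.00 on the log2 scale, beside -0.02 over all features, and 22 of the 35 members lay within 0.1 of 0. Without the 4 slides that stand apart, which leaves 1 slide at 4 h, none of the 35 members was called, against 3.36% of all features, while all 6 kept their direction.

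**Figure D1:**
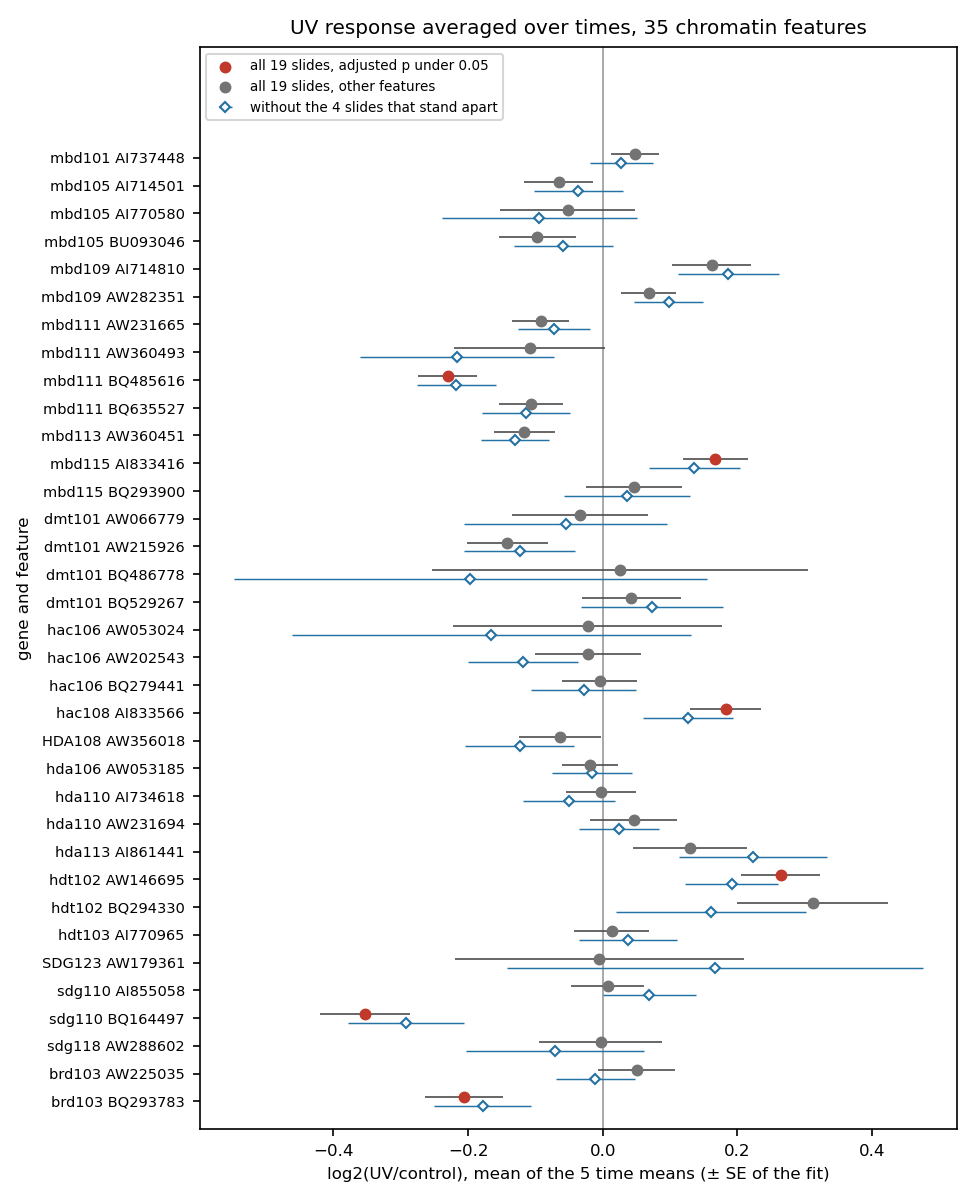
Change with UV averaged over the 5 times for each of the 35 features, as log2(UV/control) with the SE of the fit (bars), on all 19 slides (filled circles, red where the adjusted p is under 0.05) and without the 4 slides that stand apart (open diamonds). The 6 red features are 3 on each side of 0, from -0.35 for sdg110 BQ164497 to 0.26 for hdt102 AW146695.

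At single times few members passed the test. At 1 h and 4 h limma called 0 members and 0% of all features, with 4 and 2 members at an unadjusted p under 0.05, beside 1566 and 968 of the 20014 features. At 2 h 1 member was called, mbd111 BQ485616, which fell, against 4.15% of all features (2.73% upward and 1.42% downward). At 8 h 0 members were called against 7.54% of all features (5.06% upward and 2.49% downward), with 11 members at an unadjusted p under 0.05, beside 4683 of the 20014 features. At 12 h 1 member was called, sdg110 BQ164497, which fell, against 4.33% of all features (2.32% upward and 2.01% downward). The F-test for a response that differed between times called 0 of the 35 members, against 0.155% of all features, with 7 members at an unadjusted p under 0.05, beside 3051 of the 20014 features.

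The MBD genes were the largest group, with 13 features of 6 genes, of which mbd111 BQ485616 fell and mbd115 AI833416 rose in the mean over times and 11 did not pass. In mbd111 BQ485616, log2(UV/control) at 1 h was -0.08, -0.05, -0.12 and -0.03 on slides a to d. At 2 h it was -0.56, -0.67 and -0.30 on slides a, c and d, and at 4 h -0.02, -0.26, -0.15 and -0.27 on slides a to d. It was below 0 on every slide up to that time, whichever dye marked the UV sample, and up to 4 h the 2 h slides were the lowest. At 8 h it was -0.41, -0.46, -0.29 and -0.02, and at 12 h 0.14, -0.21, -0.30 and -0.01. In all it was lower in UV on 18 of 19 slides, and the exception was slide a of 12 h. The fitted change was -0.52 ± 0.11 (SE, n = 3) at 2 h, with an adjusted p of 0.0207 by limma, and -0.23 ± 0.04 (SE, n = 19) in the mean over times, with an adjusted p of 0.00268 by limma. The call at 2 h was lost without slide a of that time (-0.50, adjusted p = 0.0927 by limma) and without slide c (-0.43, adjusted p = 0.123 by limma). Without the 4 slides that stand apart the change was -0.62 (adjusted p = 0.0418 by limma) at 2 h and -0.22 (adjusted p = 0.0641 by limma) in the mean. With a mean log2 intensity of 16.73 this feature was not brighter than the foreign spot.

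The other 3 features of mbd111 were brighter than the foreign spot and none of them was called. Their changes in the mean over times were -0.11 ± 0.05 (SE, n = 19, BQ635527), -0.09 ± 0.04 (SE, n = 19, AW231665) and -0.11 ± 0.11 (SE, n = 19, AW360493), with adjusted p of 0.148, 0.164 and 0.566 by limma. In BQ635527 the values ran from -0.58 to 0.27 with a median of -0.15, and in AW231665 from -0.37 to 0.23 with a median of -0.06, so that in each the slides lay on both sides of 0. AW231665 was below 0 on 8 of 9 slides with UV in Cy5 and above 0 on 8 of 10 with UV in Cy3. AW360493 ran from -1.77 to 0.98, and its sign followed the dye: it was below 0 on all 9 slides with UV in Cy5 and above 0 on all 10 slides with UV in Cy3. The mean of the former was -0.65 and of the latter 0.45. The fit has 1 dye term for all times, which takes up such a difference only so far as it is constant. AW360493 ran from -1.77 to 0.98 at 2 h but from -0.41 to 0.07 at 8 h. All 4 mbd111 features were lower in UV together on 4 of 19 slides and higher together on 0. Since AW360493 was below 0 only with UV in Cy5, these counts follow the dye. They do not show whether the 4 features agree.

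**Figure D2:**
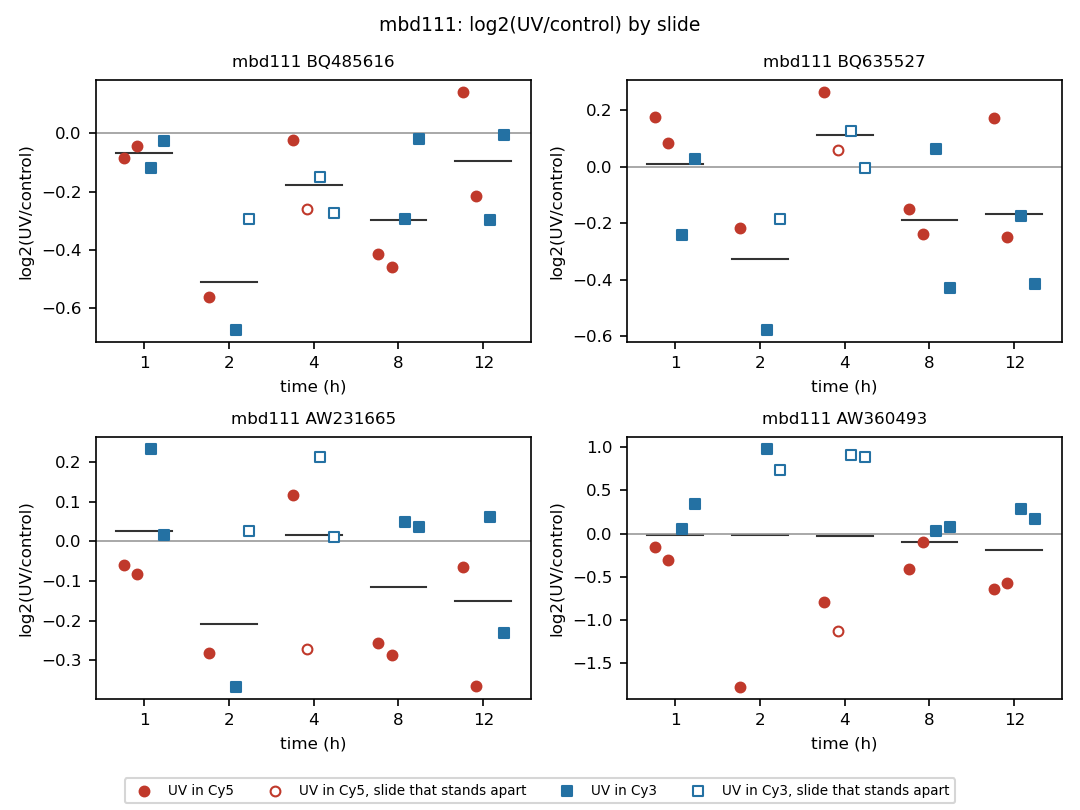
log2(UV/control) of the 4 mbd111 features on each slide by time in hours, with UV in Cy5 (circles) or Cy3 (squares), slides that stand apart as open symbols and the mean of the slides of a time as a bar. BQ485616 lies below 0 on 18 of 19 slides, and AW360493 splits by dye.

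In mbd115 AI833416, the brightest member, log2(UV/control) was 0.60, 0.06 and 0.12 on slides b, c and d of 1 h and was not measured on slide a. It was -0.07, -0.09 and 0.10 on slides a, c and d of 2 h, and 0.14, 0.34, 0.18 and 0.03 on slides a to d of 4 h. The 2 negative slides are both of 2 h, and the highest value came from slide b of 1 h, where this feature lay in a block that correlated poorly. At 8 h it was 0.17, 0.11, 0.41 and 0.02, and at 12 h 0.43, 0.03, 0.22 and 0.18. It was higher in UV on 16 of 18 slides, with a mean change of 0.17 ± 0.05 (SE, n = 18) and an adjusted p of 0.0302 by limma. Without the blocks that correlated poorly the change was 0.13 (adjusted p = 0.0746 by limma), and without the 4 slides that stand apart 0.14 (adjusted p = 0.295 by limma). The call was also lost without slide b of 1 h (0.13), d of 2 h (0.15), b of 4 h (0.16), c of 4 h (0.16), a of 12 h (0.15) or c of 12 h (0.16). The other mbd115 feature, BQ293900, was at -0.78, -0.07, -0.42 and -0.21 at 1 h, the lowest change of any member at that time (-0.37 ± 0.14, SE, n = 4, adjusted p = 0.602 by limma), and at 0.05 ± 0.07 (SE, n = 17) in the mean.

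The remaining MBD features were not called in any comparison of UV with control. mbd101, the gene whose knock-down is linked to UV-B sensitivity, ran from -0.24 to 0.28 over the slides, with a mean change of 0.05 ± 0.04 (SE, n = 19) and an adjusted p of 0.407 by limma, the smallest SE of any member. The 2 mbd109 features were at 0.16 ± 0.06 (SE, n = 19, AI714810, adjusted p = 0.0808 by limma) and 0.07 ± 0.04 (SE, n = 19, AW282351, adjusted p = 0.283 by limma), and both were above 0 together on 10 of 19 slides and below 0 together on 0. AI714810 was above 0 on 8 of 9 slides with UV in Cy5, and AW282351 on all 10 with UV in Cy3. The joint counts thus follow the dye in part and do not show whether the 2 features agree. mbd109 AI714810 reached 0.80, 0.50, 0.57 and -0.17 on the 4 slides of 8 h, for 0.43 ± 0.13 (SE, n = 4) and an adjusted p of 0.0535 by limma. It lay in no poorly correlating block, so leaving these out kept the change at 0.43, with an adjusted p of 0.0488 by limma. Its 12 h change of 0.27 ± 0.13 (SE, n = 4, adjusted p = 0.264 by limma) was the second highest of any member. mbd113 was at -0.12 ± 0.05 (SE, n = 19, adjusted p = 0.104 by limma) in the mean and at -0.59, -0.53, 0.00 and -0.16 at 8 h. Over all times mbd113 was below 0 on 8 of 9 slides with UV in Cy5 (mean -0.30) and above 0 on 6 of 10 with UV in Cy3 (mean 0.09). Its 8 h change was -0.32 ± 0.10 (SE, n = 4, adjusted p = 0.0591 by limma). None of the 4 slides that stand apart is of 8 h. Without them the change stayed at -0.32, and with an SE of 0.08 it passed the threshold. Of the mbd105 features, AI714501 was at -0.07 and BU093046 at -0.10 in the mean. The third, AI770580, had the lowest change of any member at 4 h (-0.58 ± 0.22, SE, n = 4, adjusted p = 0.865 by limma) and 8 h (-0.54 ± 0.22, SE, n = 4, adjusted p = 0.138 by limma) and the highest at 12 h (0.60 ± 0.22, SE, n = 4, adjusted p = 0.147 by limma), and it lay in a poorly correlating block on 13 slides. Without those blocks it had too few slides to be tested and gave no value.

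The DNA methyltransferase gene dmt101, also listed as met1, the type that maintains CG methylation, had 4 features and none was called. In the mean over times they were at -0.14 ± 0.06 (SE, n = 19, AW215926, adjusted p = 0.13 by limma), -0.03 ± 0.10 (SE, n = 18, AW066779), 0.04 ± 0.07 (SE, n = 19, BQ529267) and 0.03 ± 0.28 (SE, n = 18, BQ486778). AW215926 was the only one of the 4 brighter than the foreign spot, and it was lowest at 2 h, with -0.32, -0.55 and -0.29 on slides a, c and d. BQ486778 ranged from -3.13 to 3.08, with a mean of -1.11 over the slides with UV in Cy5 and of 1.07 over those with UV in Cy3. That spread sets this feature among the 2 highest members at 1 h (0.36 ± 0.68, SE, n = 3) and 2 h (0.47 ± 0.68, SE, n = 3), with adjusted p of 0.95 and 0.79 by limma. AW066779 was the second lowest member at 1 h (-0.26 ± 0.21, SE, n = 4, adjusted p = 0.834 by limma), where slide c gave -1.67 and the other slides -0.16 to 0.45. Over all times it was above 0 on 8 of 9 slides with UV in Cy5 and below 0 on 7 of 9 with UV in Cy3. BQ529267 was above 0 on 7 of 9 slides with UV in Cy5 and below 0 on 9 of 10 with UV in Cy3.

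Among the histone acetyltransferases, hac108 rose and the 3 features of hac106, also listed as hat1, did not pass. hac108, also listed as ham101, a name of the MYST family of acetyltransferases, was at 0.35, -0.10 and -0.04 on slides b, c and d of 1 h. It was at 0.08, 0.18 and 0.30 on slides a, c and d of 2 h, and at -0.06, 0.15, 0.33 and -0.04 on slides a to d of 4 h. At 8 h it was at 0.44, 0.42 and 0.16 on slides a, c and d, and at 12 h at 0.33, 0.18, 0.36 and -0.12. It was higher in UV on 12 of 17 slides, and all slides of 2 h and 8 h were above 0. Its mean change was 0.18 ± 0.05 (SE, n = 17), with an adjusted p of 0.033 by limma, and 0.13 (adjusted p = 0.333 by limma) without the 4 slides that stand apart. It was 0.15 (adjusted p = 0.0802 by limma) without the poorly correlating blocks. The call was also lost, at changes between 0.15 and 0.18, without each of 9 single slides: b of 1 h, c and d of 2 h, b and c of 4 h, a and c of 8 h, and a and c of 12 h. The hac106 features were at -0.02 ± 0.20 (SE, n = 19, AW053024), -0.02 ± 0.08 (SE, n = 19, AW202543) and 0.00 ± 0.06 (SE, n = 19, BQ279441), and the first of them ran from -2.03 to 2.52. AW053024 had a mean of -0.75 over the slides with UV in Cy5 and of 0.67 over those with UV in Cy3. Its 4 h change of -0.50 ± 0.43 (SE, n = 4, adjusted p = 0.9998 by limma) was the second lowest of any member. Without the slides that stand apart only slide a was left at 4 h, at -1.68. The fitted change was then -1.11 ± 1.01 (SE), after the dye term.

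The hda genes code for histone deacetylases. None of the 5 features of 4 genes was called in any comparison of UV with control, and in the mean over times they lay between -0.06 ± 0.06 (SE, n = 19, HDA108) and 0.13 ± 0.08 (SE, n = 19, hda113). All 5 were brighter than the foreign spot. HDA108, at 20.72 among the brightest members, was at -1.14, 0.02 and 0.23 on slides a, c and d of 2 h, and hda113 at -0.03, 1.41 and -0.14 on the same slides, so that in each 1 slide made most of the 2 h value. HDA108 was below 0 on all 9 slides with UV in Cy5, slide a of 2 h among them. It was above 0 on 9 of 10 slides with UV in Cy3.

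The hdt genes code for deacetylases of the HD2 type, a family found in plants and first described from maize nucleoli. In hdt102 AW146695, log2(UV/control) at 1 h was 0.14, 0.62, 0.31 and 0.38 on slides a to d. At 2 h it was 0.24, 0.53 and 0.82 on slides a, c and d, and at 4 h -0.27, 0.21, 0.58 and 0.00 on slides a to d. All slides of 1 h and 2 h were above 0, while those of 4 h lay on both sides. At 8 h it was 0.04, 0.29 and 0.33 on slides a, c and d, and at 12 h -0.06, -0.09, 0.61 and 0.26. It was higher in UV on 14 of 18 slides, with a mean change of 0.26 ± 0.06 (SE, n = 18) and an adjusted p of 0.00772 by limma, which fell to 0.19 (adjusted p = 0.15 by limma) without the 4 slides that stand apart. The feature was above 0 on 5 of 8 slides with UV in Cy5 (mean 0.10) and on 9 of 10 with UV in Cy3 (mean 0.41). At 12 h the slides with UV in Cy5 were below 0 and those with UV in Cy3 above. At 1 h its change was 0.36 ± 0.12 (SE, n = 4), with an adjusted p of 0.544 by limma. At 2 h its change of 0.48 ± 0.14 (SE, n = 3) was the highest of any member, with an adjusted p of 0.0707 by limma. Without slide d of 2 h and the other slides that stand apart it was 0.38 and hda113 was higher, at 0.69 (adjusted p = 0.158 by limma).

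The second feature of hdt102, BQ294330, gave a mean change of 0.31 ± 0.11 (SE, n = 19), the highest of any member, with an adjusted p of 0.0754 by limma. Without the 4 slides that stand apart it was 0.16 ± 0.14 (SE, adjusted p = 0.573 by limma), below hda113 (0.22) and hdt102 AW146695 (0.19). It was higher in UV on 12 of 19 slides, with -0.05, 1.06, 1.28 and 0.70 on slides a to d of 8 h, where its change of 0.75 ± 0.24 (SE, n = 4, adjusted p = 0.0717 by limma) was the highest of any member. At 4 h it was the second highest member, at 0.23 ± 0.24 (SE, n = 4, adjusted p = 1 by limma), and the direction turned, to -0.20 ± 0.48 (SE), without the slides that stand apart. Its signal was dim, at a mean log2 intensity of 15.57. Both hdt102 features were above 0 together on 9 of 18 slides and below 0 together on 2. hdt103 was bright (19.65) and stayed at 0.01 ± 0.06 (SE, n = 19, adjusted p = 0.905 by limma), with values from -0.30 to 0.45.

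The SET-domain genes, named for the domain of lysine methyltransferases, gave the largest fall. In sdg110 BQ164497, log2(UV/control) at 1 h was 0.05, -0.78, -0.01 and -0.21 on slides a to d. At 2 h it was -0.81, -0.21 and -0.25 on slides a, c and d, and at 4 h 0.27, -0.29, -0.24 and 0.38 on slides a to d. At 8 h it was -0.40, -0.53, -0.53 and -0.46, and at 12 h -1.08, -0.46, -0.61 and -0.33. Every slide of 2, 8 and 12 h was below 0, and those of 4 h lay on both sides. The change at 12 h was -0.62 ± 0.15 (SE, n = 4, adjusted p = 0.0251 by limma), at 8 h -0.48 ± 0.15 (SE, n = 4, adjusted p = 0.0555 by limma) and at 2 h -0.46 ± 0.17 (SE, n = 3, adjusted p = 0.134 by limma). In the mean over times it was -0.35 ± 0.07 (SE, n = 19, adjusted p = 0.00272 by limma), lower in UV on 16 of 19 slides. None of the 4 slides that stand apart is of 12 h, so leaving them out kept the 12 h change at -0.62 and altered only its estimated spread. The mean over times was then -0.29 and was no longer called. The 12 h call was lost without slide a (-0.49), b (-0.72), c (-0.58) or d (-0.69) of that time, with adjusted p of 0.175, 0.0531, 0.136 and 0.0633 by limma.

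The second sdg110 feature, AI855058, did not follow. It ran from -0.43 to 0.40, with a mean change of 0.01 ± 0.05 (SE, n = 18, adjusted p = 0.946 by limma), and stood at -0.02, -0.43, 0.38 and -0.15 on the slides of 12 h. The difference between the 2 features was not tested. sdg118 was dim (15.09) and at 0.00 ± 0.09 (SE, n = 19) in the mean, and SDG123 ran from -1.63 to 1.44 with a mean change of 0.00 ± 0.21 (SE, n = 19). At 12 h SDG123 was the second lowest member, at -0.30 ± 0.46 (SE, n = 4, adjusted p = 0.803 by limma).

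brd103, which codes for a protein with a bromodomain, had 2 features. In brd103 BQ293783, log2(UV/control) was -0.16, -0.11 and -0.22 on slides a, b and c of 1 h and -0.25 and -0.56 on slides a and c of 2 h. At 4 h it was 0.12, 0.23, -0.32 and -0.51 on slides a to d, at 8 h -0.46, -0.39, -0.29 and -0.26, and at 12 h 0.38, 0.44, -0.28 and -0.30. At 1, 2 and 8 h every measured slide was below 0, while at 4 h and 12 h the slides with UV in Cy5 were above 0 and those with UV in Cy3 below. Over all times it was lower on 8 of 8 slides with UV in Cy3 and on 5 of 9 with UV in Cy5. The mean change was -0.21 ± 0.06 (SE, n = 17, adjusted p = 0.0291 by limma), and -0.18 (adjusted p = 0.199 by limma) without the 4 slides that stand apart. The call was also lost without slide a (-0.19) or b (-0.20) of 1 h, a of 8 h (-0.19), or c (-0.19) or d (-0.19) of 12 h.

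The brighter feature, brd103 AW225035, gave 0.05 ± 0.06 (SE, n = 19, adjusted p = 0.603 by limma) in the mean over times. It was at 0.02, 0.05, 0.07 and 0.22 at 1 h, at -0.25, -0.03 and 0.24 on slides a, c and d of 2 h, and at 0.04, -0.10, 1.21 and 0.67 on slides a to d of 4 h. At 8 h it was at -0.27, -0.45, 0.21 and 0.15, and at 12 h at -0.05, -0.50, 0.12 and -0.01. Slides c and d of 4 h were the highest of all 19. The 4 h change of 0.45 ± 0.12 (SE, n = 4, adjusted p = 0.628 by limma) was the highest of any member at that time, and it became -0.09 when slides were centred on the median in place of loess. It was 0.27 without slide c of 4 h, and 0.19 without the 4 slides that stand apart, where SDG123 was higher, at 0.59 ± 1.05 (SE). On slides c and d of 4 h the control signal of this feature was 11.99 and 15.02 on the log2 scale, against 19.19 to 19.98 on the 15 other slides, so the ratio there came from dim spots. Both brd103 features were below 0 together on 5 of 17 slides and above 0 together on 1.

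**Figure D3:**
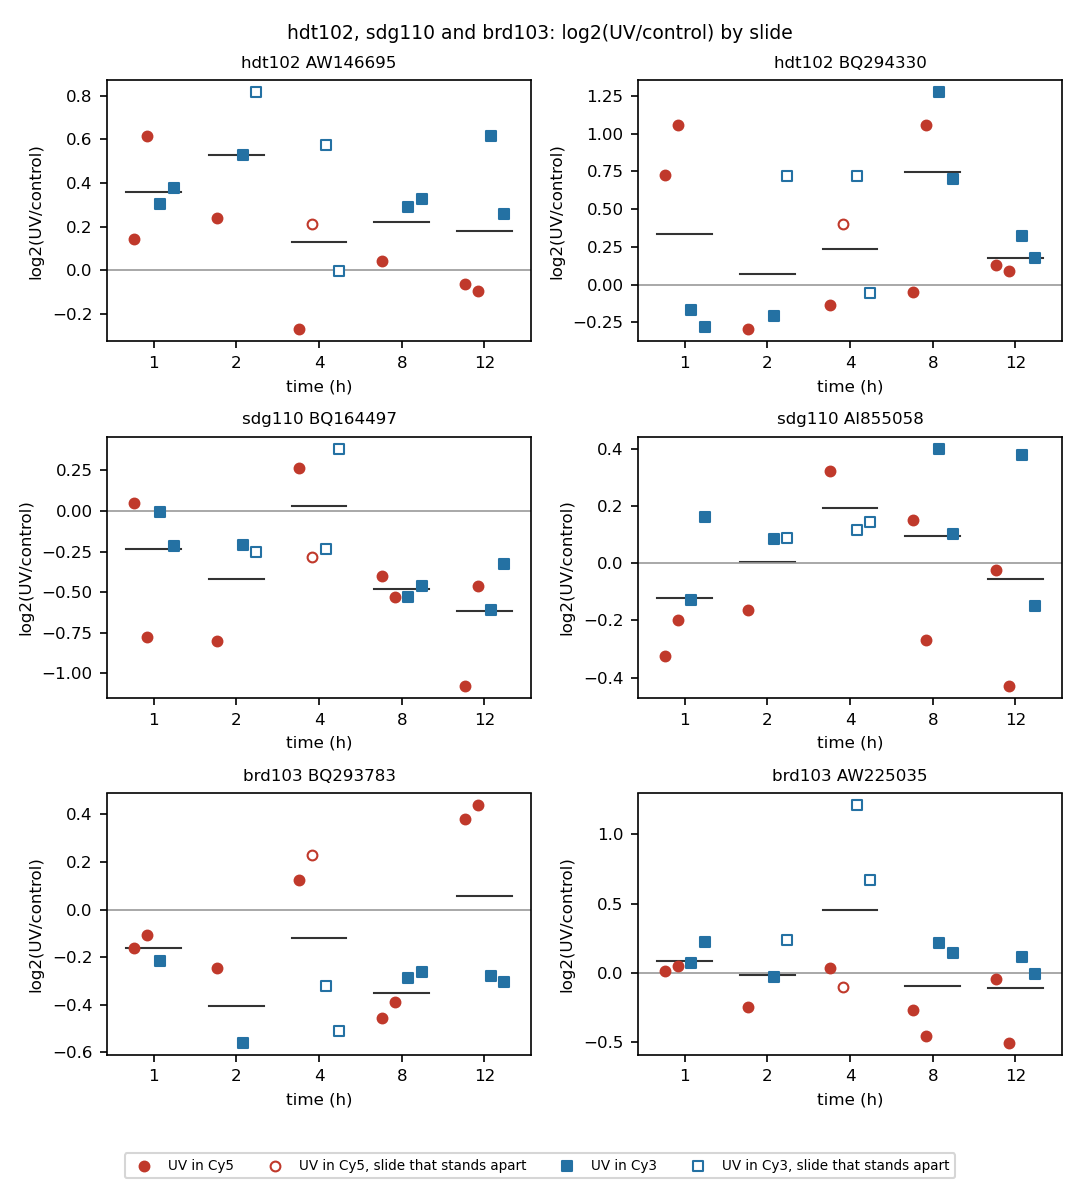
log2(UV/control) on each slide by time in hours for both features of hdt102, sdg110 and brd103, with UV in Cy5 (circles) or Cy3 (squares), slides that stand apart as open symbols and the mean of the slides of a time as a bar. In sdg110 BQ164497 every slide of 8 h and 12 h lies below 0, while AI855058 of the same gene lies on both sides.

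Control leaves were then compared over time, to see whether the members' level changed without UV. The separate-channel fit held the 25 members measured in all samples and 14229 features in all, and slides of different times are different slides, so slide and time cannot be told apart. The F-test called 6 of 25 members, against 13.7% of all features: hda110 AW231694, mbd113, sdg110 BQ164497, brd103 AW225035, hac106 AW202543 and mbd111 AW231665. Of the single times, 4 h against 1 h called 7 of 25 members, against 17% of all features, while 2, 8 and 12 h against 1 h called 0 members, against 0%, 2.53% and 5.4%.

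The differences at 4 h lay on the slides that stand apart, in hdt102 BQ294330 only in part. In brd103 AW225035 the control log2 intensity was 19.58, 19.19, 19.43 and 19.34 at 1 h and 19.98, 16.01, 11.99 and 15.02 on slides a to d of 4 h. In mbd113 it was 18.57, 18.46, 18.16 and 17.90 at 1 h and 18.93, 15.08, 14.79 and 14.09 at 4 h. In both, slide a of 4 h was above every slide of 1 h and the other 3 slides were below them. In hac106 AW202543 the level was 20.37, 20.30, 20.45 and 18.34 at 1 h and 20.15, 13.90, 15.75 and 16.06 at 4 h, and in hda110 AW231694 17.98, 18.17, 18.01 and 17.54 at 1 h and 18.10, 14.10, 15.10 and 15.75 at 4 h. sdg110 BQ164497 went the other way, from 17.52, 17.85, 16.86 and 17.20 at 1 h to 16.88, 19.32, 19.80 and 19.40 at 4 h. In each of these genes slide a of 4 h lay within the range of the 1 h slides or close to it, and slides b, c and d did not. In hdt102 BQ294330 slide a of 4 h was at 15.75, above the 1 h slides (13.24 to 15.6). The other slides of 4 h were higher and reached 17.04.

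The fitted difference of 4 h against 1 h was -3.27 ± 0.85 (SE, brd103 AW225035), -3.60 ± 0.88 (SE, hac106 AW202543), -2.81 ± 0.63 (SE, mbd113), -2.10 ± 0.51 (SE, hda110 AW231694) and -2.19 ± 0.70 (SE, mbd111 AW360493), all on the log2 scale. It was 1.76 ± 0.45 (SE, sdg110 BQ164497) and 1.80 ± 0.52 (SE, hdt102 BQ294330) in the features that were higher. Their adjusted p ran from 0.00923 to 0.0321 by limma. Without the poorly correlating blocks 9 of 22 members were called at 4 h, against 20.6% of all features, these 7 among them. Without the 4 slides that stand apart, where 4 h rests on slide a alone and its spread is taken from the other times, the 5 negative differences became 0.62, 0.04, 0.36, 0.08 and 0.23, and the 2 positive ones 0.08 and 0.76. No member was then called at 4 h, against 0.418% of all features. The F-test then called 1 of 26 members, dmt101 BQ529267, against 6.73% of all features, and 12 h against 1 h called 1, hac106 AW202543 (-1.61 ± 0.42, SE, adjusted p = 0.0179 by limma), against 11.1%. In dmt101 BQ529267, a feature dimmer than the foreign spot, slide a was at 13.17 at 2 h and 12.94 at 4 h, beside 14.96 to 15.7 at 1 h. Its difference against 1 h on the 15 slides was -2.20 at 4 h, where only that slide was left. It was 0.44 at 8 h and 0.51 at 12 h. In hac106 AW202543 the 12 h slides were at 18.54, 18.37, 18.33 and 18.25, below 3 of the 4 slides of 1 h and close to slide d.

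**Figure D4:**
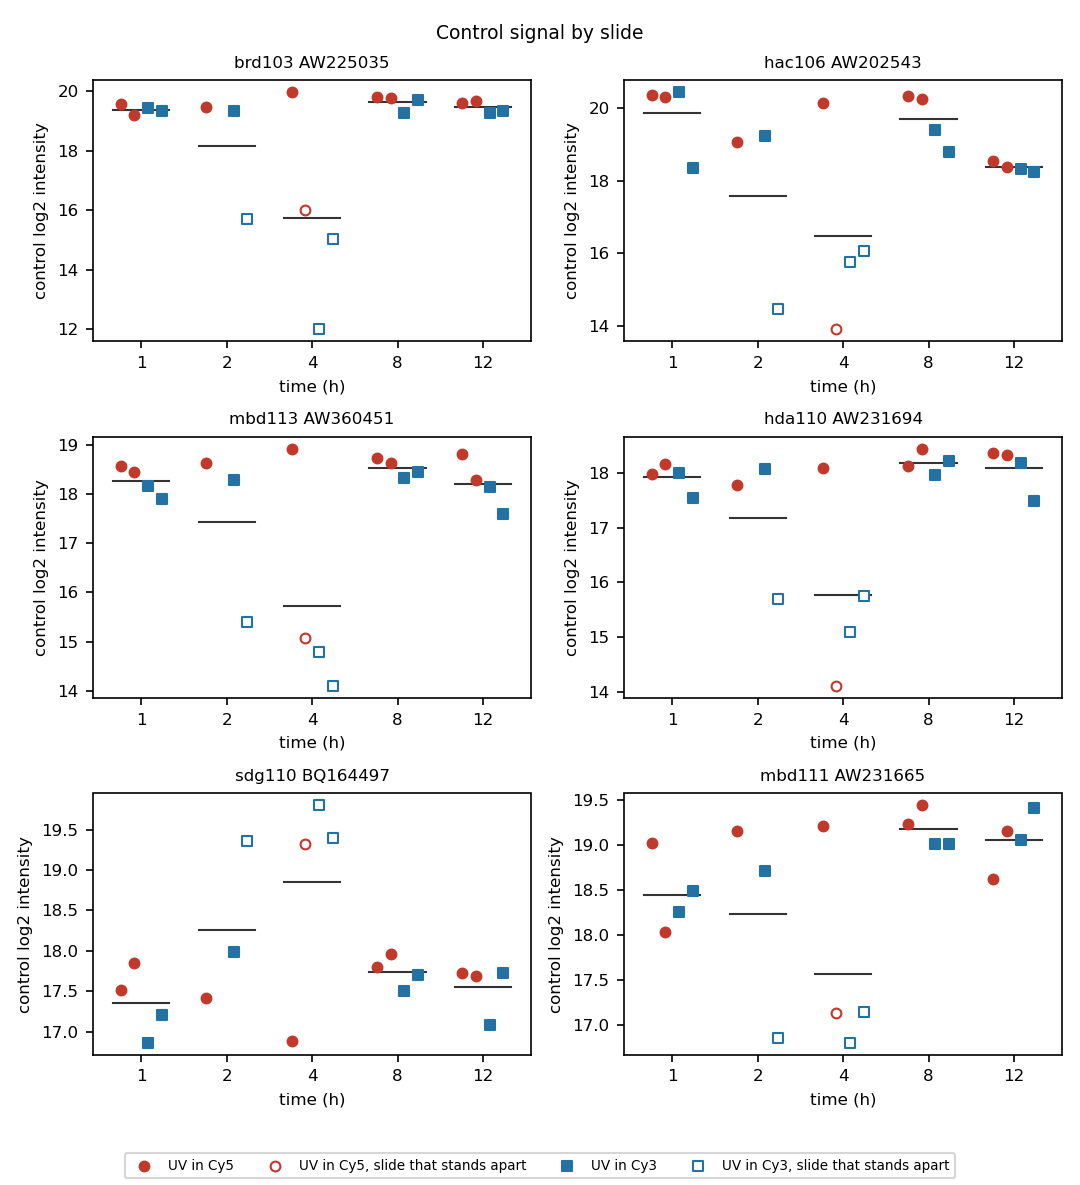
Control log2 intensity of the 6 features called for a level that differed between times, on each slide by time in hours, with symbols by the dye of the UV sample on the slide (the control carried the other dye), slides that stand apart as open symbols and the mean of a time as a bar. In 5 of the panels the open symbols lie below all filled ones, and in sdg110 BQ164497 above them.

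Other chromatin genes, nucleosome and chromatin assembly factors, HMG proteins and histones among them, were taken from a list of names of 47 features of 25 genes. In the mean over times 6 of the 47 rose and 1 fell, beside 14.4% of all features (8.72% upward and 5.68% downward). The assembly factor genes nfa103 AI795363 rose by 0.52 ± 0.06 (SE, adjusted p = 0.000152 by limma), nfc102 by 0.50 ± 0.11 (SE, adjusted p = 0.00838 by limma) and nfa104 AW216033 by 0.31 ± 0.06 (SE, adjusted p = 0.00286 by limma), and nfc103 fell by 0.18 on the log2 scale. The median of the list was -0.03, and these values were not recomputed without the 4 slides that stand apart. A list of 15 features of 9 genes with names of DNA repair and UV protection gave 3 rises in the mean, beside 8.72% of all features. However, 2 of the 3 belong to RPA-2A1, a gene whose other names are those of an acidic ribosomal protein. The name match thus did not find a repair gene there. The third was PCNA, the sliding clamp of DNA replication and repair, at 0.17 ± 0.05 (SE, adjusted p = 0.0363 by limma).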

How the data were processed

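Each deposited per-sample file lists a linear intensity for every spot of its channel, from scans gridded in TIGR Spotfinder, per the labels. Any earlier background subtraction is not stated there. Channels held 18795 to 20158 spots, with median intensities from 138059 to 626914, and the number of slides limits the precision. The series matrix holds a score per feature that the authors processed and deposited. Its log base and centring are not known, its column medians were 12.23 to 12.34, and it correlated with log2 intensity at 0.749 to 0.828, so it served only as an alternative.

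Intensities were corrected by normexp (offset 50) and normalized by loess (span 0.3) within each slide in limma 3.58.1 (R 4.3.3), with 120 specially named spots left out. Spots of a feature were averaged and features measured on at least 2 slides of every time were tested. The fit had a mean per time and a dye term, with p-values adjusted by Benjamini-Hochberg at 0.05. Control levels came from a separate-channel fit after Aquantile scaling (intraspot correlation 0.787). The UV and control sample of a slide are paired by the design, and their deviations from the group means correlated at 0.656 to 0.918, so the ratio is the main value. The script was tested on simulated data. Genes were named by the platform's table and the symbols and synonyms of the same gene in RefSeq. The members and lists were chosen with earlier results of these data known. All members were accounted for; values by slide were given for mbd111, brd103 and called members, and for each comparison of UV with control the 2 highest and 2 lowest members were named. No sequences were used here.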

Additional observations from a re-analysis of the deposited data

Results flagged for a closer look

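Among 161 sets of 4 slides, 7 had 1 slide far from the other 3, and by chance about 1 in 20 such sets would. The sets pool log2(UV/control) of all members with the control signal of only those members called in a control comparison. Most of the 7 were in the control signal, so the pooled count cannot be set against chance. In log2(UV/control), slide a of 12 h stood at 0.30 in hac106 AW202543, beside -0.20 to -0.16 on the others, and slide a of 8 h at -1.11 in mbd105 AI770580, beside -0.36 to -0.34. In the control signal at 4 h, slide a was at 19.21 in mbd111 AW231665, beside 16.80 to 17.14, and at 16.88 in sdg110 BQ164497, beside 19.32 to 19.80, which is the split between slide a and the slides that stand apart. Slide d of 1 h was at 18.34 in hac106 AW202543, beside 20.30 to 20.45, and at 18.33 in mbd111 AW360493, beside 19.64 to 19.81. Slide c of 12 h was at 17.08 in sdg110 BQ164497, beside 17.69 to 17.73.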

How the results depend on the processing

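The count of members called at 2 h (1 in the report) was 2 with median centring or the series matrix and 0 with slides scaled to equal spread, with slide weights or with the slides of 2 h alone. At 8 h (0 in the report) it was 2 without background correction, 4 with median centring, 3 with the series matrix, with only features above the foreign spot or with slide weights, and 1 with features measured on all slides and under each of the 3 settings added after the data were seen. At 12 h (1 in the report) it was 0 with median centring or the slides of 12 h alone, and for the response between times (0 in the report) 1 with median centring. In the mean over times (6 in the report) it was 2 with features measured on all slides and 0 without the 4 slides that stand apart, with or without the poorly correlating blocks; the control level (6 in the report) gave 1 without these slides. When samples were not treated as paired on a slide, with no block, the counts were 0 at 2 h, 0 at 12 h, 0 in the mean over times and 0 for the control level, and the cause was not tested. Leaving out 1 slide at a time gave 0 to 0 members at 1 h, 0 to 1 at 2 h, 0 to 0 at 4 h, 0 to 2 at 8 h, 0 to 1 at 12 h, 3 to 7 in the mean, 0 to 0 between times and 0 to 10 for the control level, where slide a of 4 h gave the 10 and slide d of 4 h the 0. Of the members named for UV, brd103 AW225035 at 4 h reversed, to -0.0859 with median centring; control differences of 4 h against 1 h reversed without the 4 slides in hac106 AW202543 (0.0375), brd103 AW225035 (0.62), hda110 AW231694 (0.0840), mbd113 (0.36) and mbd111 AW360493 (0.23). The counts of members above are given without the share of all features called in the same setting. They therefore do not tell a change of the members from a change of all features. Signal close to that of the foreign spots limits 7 of the 35 members.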
